A study of Homo sapiens with 6 samples.

Results

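The sites described here are SMAD2 binding sites found in both libraries of Hs578T cells treated with palbociclib and activin A, at which no summit of a library treated with activin A alone lay within 2000 bp. The Hs578T line is widely used as a model of human triple-negative breast cancer. SMAD2 had been immunoprecipitated with its bound chromatin and the DNA sequenced (ChIP-seq), in 2 libraries after activin A at 50 ng/ml for 1.5 h (the activin libraries) and in 2 libraries after palbociclib at 1 µM for 24 h and the same activin A dose and time (the palbociclib libraries). All 4 libraries thus came from activin-treated cells, none of them from unstimulated cells, and nothing in the labels states that the replicates came from separate cultures. The difference between replicates may therefore be technical only. Each deposited list gives the summit, which is the base of highest signal, of every peak on the genome build hg19, with a score on a −log10 scale.

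On chromosomes 1 to 22 and X, summits of any list no more than 250 bp from the next one formed a site, which gave 36647 sites, of which 15460 were present in both palbociclib libraries. Of these, 342 had no activin summit within 2000 bp of any of their summits (2.21%), and they are called distant palbociclib-only sites below. They made up 0.933% of all sites. They were chosen by which peaks had been called in the 4 lists, so their presence after palbociclib and absence after activin alone are a description and carry no test. The reverse rule, presence in both activin lists with no palbociclib summit within 2000 bp, left 8 of 6221 sites (0.129%). These counts rest on lists of very different length: the activin lists held 25553 and 7241 summits, and the palbociclib lists 27290 and 19226, of which 1 on chromosome Y was left out. The number of reads per library is unknown, and it was not tested whether weak peaks are missing from a list for want of depth. Leaving out a library eases the rule by construction. The rule left 8038 sites when activin replicate 1 was dropped and 354 when activin replicate 2 was. Dropping a palbociclib library left 616 sites (replicate 1) or 2788 (replicate 2). So the absence rested almost wholly on the list of activin replicate 1. Per the labels, the peaks of a treatment had 1 input DNA library as their control in both replicates, so treatment and input cannot be told apart.

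SMAD2 is phosphorylated by the activated activin receptor, joins SMAD4 and gathers in the nucleus. It is tethered to DNA mainly through SMAD4 and partner transcription factors, and the partners differ between cell types. Palbociclib inhibits CDK4 and CDK6, the kinases that act with cyclin D and phosphorylate the retinoblastoma protein, and it holds cells that have this protein in the G1 phase. The comparison addresses where SMAD2 is found after activin when these kinases are inhibited. The DNA sequence of the sites and their position relative to genes were not analysed here, because no genome or gene annotation of hg19 was used.

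The distant palbociclib-only sites were weak peaks in both libraries that defined them. In palbociclib replicate 1 their scores ran from 1.46 to 30.6, with a median of 6.57 (quartiles 4.46 and 8.93). In palbociclib replicate 2 they ran from 1.72 to 17.5, with a median of 4.42 (quartiles 3.41 and 5.63). The lowest scores of these lists were 1.32 and 1.34, so the weakest of the 342 sites lay close to the calling threshold. The 5829 sites shared by all 4 libraries had median scores of 119 and 56.0 in the same 2 libraries. The 8246 sites that were missing only from activin replicate 2 had intermediate scores, and the medians were 27.2 and 11.5. The 961 palbociclib-only sites that did have an activin summit within 2000 bp lay closer, with medians of 9.1 and 5.4. Sites of a single palbociclib library with no activin summit within 2000 bp were weaker still. Their medians were 4.46 for 2441 sites of replicate 1 and 3.94 for 263 sites of replicate 2. For 846 sites of activin replicate 1 alone, over 2000 bp from palbociclib summits, the median in that list was 3.71. Weak scores were thus not particular to the 342 sites.

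Scores were also expressed as percentiles of the site ranks within a list, from 0 for the strongest site to 100 for the weakest. The median percentile of the distant palbociclib-only sites was 73.5 in replicate 1 and 86.6 in replicate 2. Of the 342 sites, 318 lay in the weaker 50% of both lists (93.0%), and 1 lay in the stronger 50% of both. In the weakest 25% there were 155 sites in replicate 1 (45.3%) and 277 in replicate 2 (81.0%), and 140 were there in both. A score of at least 5 in both libraries was reached by 105 sites (30.7%) and a score of at least 10 by 7 sites (2.05%). Over all 15460 sites of both palbociclib libraries the lower quartiles of the scores were 18.1 and 7.95.

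**Figure D1:**
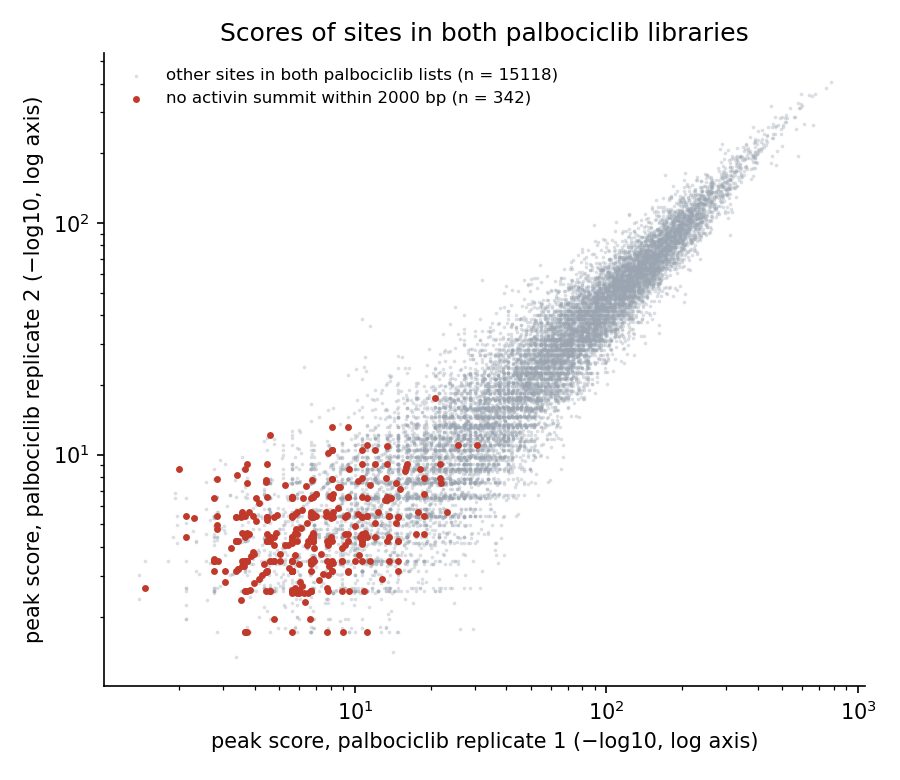
Peak scores (−log10, log axes) of the 15460 sites in both palbociclib libraries, replicate 1 on the horizontal and replicate 2 on the vertical axis, with 1 point per site and the 342 sites without an activin summit within 2000 bp in red. The red points fill the weak corner, up to 30.6 in replicate 1 and 17.5 in replicate 2.

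The share of such sites was highest among weak sites. Among sites of both palbociclib libraries scored at least 50 in replicate 1, 0 of 7544 were distant palbociclib-only sites, which allows a share of up to 0.0489% (exact 95% binomial bound). Between 20 and 50 the count was 7 of 3761 (0.186%), and between 10 and 20 it was 64 of 2245 (2.85%, exact 95% binomial interval 2.20 to 3.63). Between 5 and 10 it was 167 of 1410 (11.8%, 10.2 to 13.6) and between 3 and 5 it was 88 of 409 (21.5%, 17.6 to 25.8). In the weakest band, from 1.3 to 3, it was 16 of 91 (17.6%, 10.4 to 27.0), which did not part from the band above. By the score in replicate 2, none of the 7846 sites scored at least 20 was among them, and 157 of 1406 sites scored from 3 to 5 were (11.2%, 9.57 to 12.9), as were 48 of 384 scored from 1.3 to 3 (12.5%, 9.36 to 16.2). These intervals cover counting error only and treat sites as independent, which neighbouring sites may not be.

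**Figure D2:**
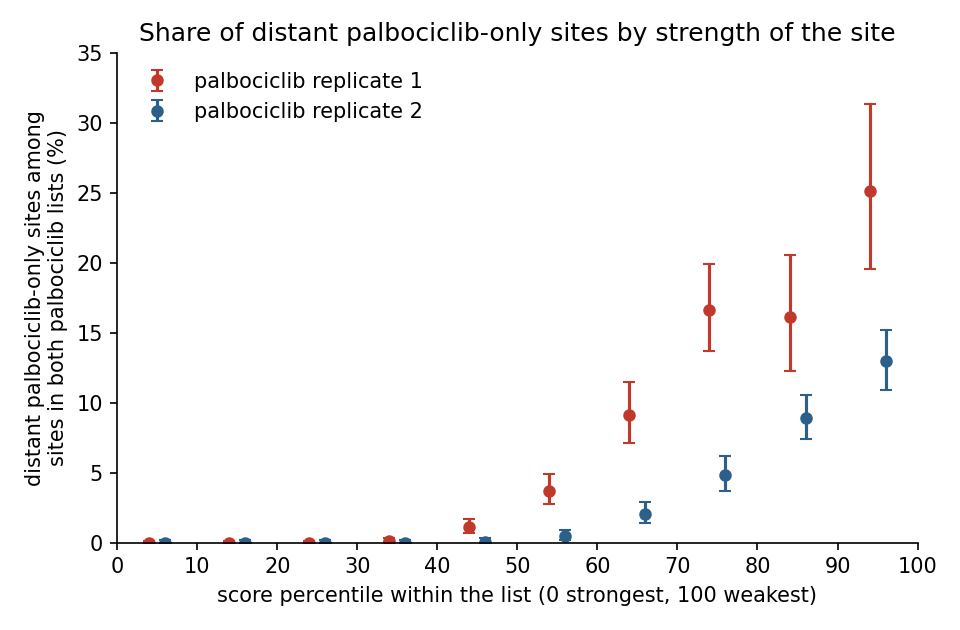
Share of distant palbociclib-only sites among the sites of both palbociclib libraries (vertical axis, %) in 10-point bands of the score percentile within replicate 1 (red) or replicate 2 (blue), with 0 the strongest and 100 the weakest. Points are shares and bars exact 95% binomial intervals; the share is 0 in the strongest 3 bands of both lists and reaches 25.1% in the weakest band of replicate 1 and 13.0% in that of replicate 2.

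The order of strength among these sites was loosely shared by the replicates. Spearman's rho between the 2 palbociclib scores was 0.315 across the 342 sites, against 0.921 across the 5829 sites shared by all libraries and 0.616 across the 961 palbociclib-only sites near an activin summit. These are descriptions across sites, which share their 2 libraries, and a narrow range of scores lowers rho. Among sites scored below 10 in replicate 1 and below 6 in replicate 2, rho was 0.0416 for 226 distant palbociclib-only sites, 0.110 for 430 palbociclib-only sites near an activin summit and 0.148 for 755 sites that activin replicate 1 also had. At like strength the order was thus hardly shared in any of these 3 classes. Replicate 1 gave the higher score at 273 of the 342 sites (79.8%), and its score was 1.47 times that of replicate 2 at the median site. At the sites shared by all 4 libraries this ratio was 2.12. The ratio moves with the depth of the libraries, which is unknown.

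The summits of both palbociclib libraries lay at a median of 65 bp from each other at the distant palbociclib-only sites (quartiles 25.3 and 136.5 bp). They lay within 50 bp at 138 sites (40.4%) and within 100 bp at 217 (63.5%). Joining summits over at most 250 bp limits these offsets by construction, and 340 of the 342 were no larger. The shares are thus no test of agreement in position. At the sites shared by all 4 libraries the median was 16 bp. Weak sites had wide offsets whether or not activin replicate 1 had them. Among sites scored below 10 in replicate 1 and below 6 in replicate 2, the median offset was 76.5 bp for 226 distant palbociclib-only sites (95% interval 65 to 94). It was 75 bp for 755 sites that activin replicate 1 also had (70 to 85). The site itself was simple: 337 of the 342 held 1 summit of each palbociclib library, 4 held 3 summits in all and 1 held 4. From the first to the last summit the sites spanned 1 to 522 bp, with a median of 66 bp.

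The 10 sites with the best mean rank over both palbociclib lists were moderate peaks with closely placed summits, 2 to 32 bp apart. The first, at chr17:11923991-11924000, scored 20.9 in replicate 1 and 17.5 in replicate 2. It was the only one of the 342 in the stronger 50% of both lists, at percentiles 43.7 and 46.9. No other summit of any library lay within 10000 bp of it, and the nearest activin summit was 23014 bp away. The nearest site shared by all 4 libraries, at chr17:11900966-11900986, scored 137 and 26.35 in the activin libraries and 229 and 121 in the palbociclib libraries. Even this best-ranked site thus scored far below its shared neighbour in both palbociclib libraries.

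The second, at chr14:23067318-23067332, had the highest replicate 1 score of all 342 sites, 30.6, and scored 11.01 in replicate 2. Its nearest activin summit lay 9239 bp away, at a shared site. The third, at chr10:135333960-135333986, scored 25.7 and 10.97, with no other summit within 10000 bp and the nearest activin summit at 89394 bp. A site at chr8:141644355-141644386 followed with scores of 21.8 and 9.1, 121075 bp from an activin summit. The nearest activin summits of these 4 sites were thus 9239 to 121075 bp away.

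The site at chr17:46655674-46655699 scored 21.8 and 7.95 and had another distant palbociclib-only site 849 bp away. The sites at chr22:28839617-28839623 (18.1 and 8.67) and chr5:14264839-14264869 (21.9 and 7.54) stood alone, with the nearest activin summit at 235827 bp and 119485 bp. At chr10:70315039-70315044 the scores were 18.9 and 7.95, and an activin summit lay 5095 bp away. On chromosome 19 the sites at 4535200 to 4535202 (16.0 and 9.16) and at 30332609 to 30332641 (15.9 and 8.82) closed the 10. In 5 of these 10 sites no other summit of any library lay within 10000 bp.

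Distance to the nearest activin summit varied over 2 orders of magnitude beyond the 2000 bp that the rule required. Its median was 9479.5 bp (quartiles 3751.5 and 24424 bp). An activin-free distance of over 5000 bp held for 233 sites (68.1%), over 10000 bp for 163 (47.7%), over 50000 bp for 43 (12.6%) and over 100000 bp for 21 (6.14%). The nearest activin summit was one of replicate 1 at 258 sites (75.4%) and one of replicate 2 at 84 (24.6%), in lists of 25553 and 7241 summits. The most remote were at chr4:127966571-127966580, with scores of 5.62 and 4.24 and 577515 bp to an activin summit, at chr18:76829367-76829374 (14.9 and 5.4, 324664 bp) and at chr20:55500500-55500520 (3.71 and 9.16, 296062 bp). These most remote sites had no other summit of any library within 10000 bp.

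The distances ran through the 2000 bp threshold without a gap. Just inside lay chr1:45244607-45244630 at 2020 bp from an activin summit (scores 8.55 and 5.91), chr17:16344465-16344600 at 2053 bp (6.24 and 6.5) and chr11:58343892-58344097 at 2068 bp (5.62 and 3.15). Just outside lay sites at 2000 bp on chromosome 14 from 59948934 to 59949046 (2.13 and 2.25), at 1994 bp on chromosome 7 from 99695201 to 99695389 (2.57 and 2.36) and at 1993 bp on chromosome 10 from 75562922 to 75563023 (2.33 and 4.24). A distance of 1000 bp would have left 550 sites and one of 10000 bp 163.

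The rule was also taken apart in the replicate 1 libraries, whose lists are of similar length. Of the 27290 summits of palbociclib replicate 1, 2820 had no summit of activin replicate 1 within 2000 bp (10.3%). Of these, 360 had a palbociclib replicate 2 summit within 250 bp (12.8%) and 5 had one of activin replicate 2 (0.177%). The 360 restate most of the rule that chose the 342 sites, so this share is a description and supports nothing. In the other direction, 1017 of the 25553 summits of activin replicate 1 had no palbociclib replicate 1 summit within 2000 bp (3.98%). Of these, 71 had a summit of palbociclib replicate 2 within 250 bp (6.98%) and 23 had one of activin replicate 2 (2.26%). Most summits found in only one of the replicate 1 lists were thus missing from both replicate 2 lists too. For comparison, 24470 palbociclib replicate 1 summits did have an activin replicate 1 summit within 2000 bp. Of these, 14992 had a palbociclib replicate 2 summit within 250 bp (61.3%) and 6014 had one of activin replicate 2 (24.6%).

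The counts differed with the score in the summit's own list. At scores of 12 or more, 44 of 118 such palbociclib replicate 1 summits had a palbociclib replicate 2 summit (37.3%) and 1 had one of activin replicate 2 (0.847%). Of 57 such activin replicate 1 summits, 24 had a palbociclib replicate 2 summit (42.1%) and 21 had one of activin replicate 2 (36.8%). At scores from 5 to 8, 131 of 816 palbociclib replicate 1 summits (16.1%) and 14 of 263 activin replicate 1 summits (5.32%) had a palbociclib replicate 2 summit, while 2 of the 816 and 0 of the 263 had one of activin replicate 2. Equal scores in 2 lists need not mean equal enrichment. In the replicate 2 libraries the same rule called 10391 of 19225 palbociclib summits (54.0%) and 43 of 7241 activin summits (0.594%). There the short activin list set the count, and 7939 of the 10391 had a summit of activin replicate 1 within 250 bp (76.4%). Replicate 1 summits scored from 5 to 8 with the other treatment within 2000 bp were mostly missing from replicate 2 as well. Of 3377 such palbociclib summits, 755 had a palbociclib replicate 2 summit (22.4%) and 3 one of activin replicate 2 (0.0888%). Of 3910 such activin summits these were 1344 (34.4%) and 13 (0.332%). At 12 or more, 12847 of 14777 such palbociclib summits had a palbociclib replicate 2 summit (86.9%). Of these 14777, 5997 had one of activin replicate 2 (40.6%). Of 13488 such activin summits these were 11903 (88.2%) and 6088 (45.1%). The band of 12 or more has no upper bound, so summits in it need not be of like strength. Distant palbociclib-only sites scored up to 30.6 in palbociclib replicate 1, where shared sites had a median of 119.

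Most of the distant palbociclib-only sites had other SMAD2 sites in their neighbourhood, if not within 2000 bp. The nearest site shared by all 4 libraries was at a median of 21950.5 bp (95% interval 17531 to 27567). Up to 5000 bp away were 42 sites (12.3%), from 5000 to 20000 bp 123 (36.0%), from 20000 to 100000 bp 107 (31.3%), from there to 1000000 bp 64 (18.7%), and beyond that 6 (1.75%). For 2704 sites of a single palbociclib library held to the same activin-free distance, the median was 29851.5 bp (27725 to 32621). For 846 sites of activin replicate 1 alone, held to the same distance from palbociclib summits, it was 52951 bp (45673 to 64749). These intervals cover counting error over sites only, and between libraries no test was made.

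The distance to shared sites went with strength. The 105 distant palbociclib-only sites scored at least 5 in both libraries lay at a median of 44167 bp from a shared site (95% interval 24387 to 55528), and the other 237 at 18081 bp (14423 to 22507). Sites of a single palbociclib library showed the same split, at 46180.5 bp (39799 to 52143) for 1060 sites scored at least 5 and at 24264.5 bp (22269 to 26816) for 1644 weaker sites. Within either band, the interval of the distant palbociclib-only sites overlapped that of the single-library sites, although over all sites the intervals lay apart. The bands are not of like strength, however. A distant palbociclib-only site had to score 5 in both libraries, and a single-library site in its 1 library. The sites of activin replicate 1 alone lay farther away in both bands, at 97667.5 bp (78349 to 125290) for 274 sites and at 37517.5 bp (32238 to 45999) for 572. The stronger distant palbociclib-only sites also more often had no further palbociclib summit within 10000 bp, at 42 of 105 (40.0%) against 51 of 237 (21.5%). Single-library sites were split likewise, at 431 of 1060 (40.7%) against 432 of 1644 (26.3%).

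**Figure D3:**
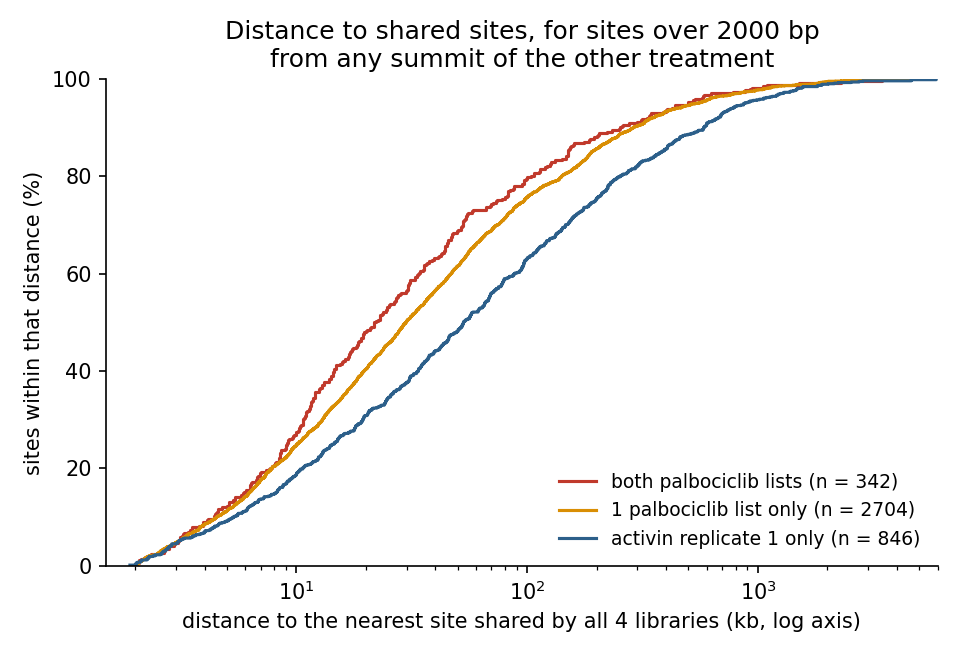
Cumulative share of sites (vertical axis, %) by distance to the nearest site shared by all 4 libraries (kb, log axis) for the 342 distant palbociclib-only sites (red), 2704 sites of 1 palbociclib library only (orange) and 846 sites of activin replicate 1 only (blue), all over 2000 bp from any summit of the other treatment. The red curve leads, with a median of 21950.5 bp against 29851.5 and 52951 bp.

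The sites nearest to a shared site were the same 3 that lay just inside the threshold, at 2020, 2044 and 2068 bp. The shared neighbour of the one at chr17:16344465-16344600 scored 204 and 46.5 in the activin libraries and 351 and 168 in the palbociclib libraries, far above the 6.24 and 6.5 of the site itself. The farthest from a shared site were chr21:15742649-15742659 at 3448872 bp (4.85 and 4.61), chr12:85430177-85430181 at 2349457 bp (4.16 and 6.2) and chr7:80506361-80506382 at 2285687 bp (4.46 and 9.1). The first of these still had an activin summit 12749 bp away.

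Within 10000 bp on either side, 178 of the 342 sites (52.0%) had further summits of both treatments, 71 (20.8%) had further palbociclib summits only, 1 had activin summits only and 92 (26.9%) stood alone. Within 50000 bp, 299 sites (87.4%) had further summits of both treatments and 33 (9.65%) stood alone. The median number of further palbociclib summits within 10000 bp was 2, the same as at sites of a single palbociclib library, and 27.2% of the sites had none. That share was 31.9% at the single-library sites and 28.2% at all sites of both palbociclib libraries. Of the other treatment, which the rule itself keeps out of the inner 2000 bp, 47.7% of the sites had no summit within 10000 bp. At the single-library sites, held to the same activin-free distance, it was nearly the same, 47.0%. At the sites of activin replicate 1 alone, 55.2% had no palbociclib summit within that distance, and the rule bears on that share in the same way.

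The shared sites next to the distant palbociclib-only sites had a median rank change of under 1 percentile point after palbociclib, and the few closest ones a larger one in replicate 1. The 310 shared sites that were nearest to a distant palbociclib-only site were ranked among the 5829 shared sites of each library, as percentiles with 0 the strongest. Their median change from the activin to the palbociclib libraries was -0.0987 percentile points, against 0.571 over all shared sites, where a negative value is a rise in rank. In replicate 1 the median change was 0.0729 against 0.154 and in replicate 2 it was 0.309 against 0.618. Of the 310, 157 ranked higher after palbociclib (50.6%), against 2775 of all 5829 (47.6%). They were somewhat stronger than other shared sites, with a median percentile over the 4 libraries of 45.0 (quartiles 21.4 and 68.7) against 50.9 (28.3 and 72.3). For the 41 shared sites within 5000 bp it was 35.7. The median change of these 41 was -2.02 percentile points, -2.03 in replicate 1 and 0.309 in replicate 2, and 25 of them ranked higher after palbociclib (61.0%). The replicates thus differed in sign at the closest shared sites, though both values lay below the 0.154 and 0.618 over all shared sites.

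Some of the distant palbociclib-only sites lay next to each other. Another such site was within 2000 bp of 37 of them (10.8%), within 10000 bp of 43 (12.6%), within 100000 bp of 69 (20.2%) and within 1000000 bp of 152 (44.4%). Most neighbours within 10000 bp were thus within 2000 bp. Among them were sites only 373 or 460 bp apart, not far beyond the 250 bp over which summits were joined. With joining over 500 bp the share within 100000 bp was again 20.2%, and with joining over 100 bp it was 12.8%. The same shares were not computed for other classes of sites, so it was not tested whether they are unusually high or low. Joined over gaps of up to 100000 bp, 273 sites stood alone, 28 groups held 2, 3 groups held 3 and 1 group held 4.

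The group of 4 ran over 66041 bp at chr18:32826040-32892080. Its scores were 4.49 to 5.62 in replicate 1 and 1.95 to 6.47 in replicate 2, and the nearest activin summits were 5013 to 18385 bp away. Of its 4 sites, 2 lay 541 bp apart. The groups of 3 tied in size and differed in extent. The one at chr17:46624500-46655699 held the fifth of the best-ranked sites, with scores of 2.74 to 21.8 and 3.47 to 7.95, and activin summits 2424 to 8149 bp away. The one at chr1:33461018-33473020 had scores of 5.49 to 7.8 and 3.24 to 5.53. Its 3 sites had 7 to 11 further palbociclib summits within 10000 bp, partly those of the group's other sites, against 0 to 2 activin summits. The one at chr7:99663282-99665517 was the most compact, 2236 bp long, with scores of 2.83 to 5.62 and 2.6 to 5.42. Its 3 sites had 4 to 5 further palbociclib summits within 10000 bp, but at least 4 of these were summits of the group's other 2 sites. Activin summits within that distance numbered 0, and the nearest lay 13821 to 15826 bp away. Every score in the groups on chromosomes 18, 1 and 7 was below 8, so these gatherings were built of weak peaks.

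The sites were found on all 23 chromosomes. Chromosomes 1 and 19 held the most, 34 (9.94%) and 33 (9.65%), followed by chromosome 16 with 26 (7.60%) and chromosome 17 with 24 (7.02%). Chromosome 13 held the fewest, 3. Set against the sites of both palbociclib libraries, for which the overall share was 2.21%, the share was 3.54% on chromosome 16 (26 of 735, exact 95% interval 2.32 to 5.14) and 0.969% on chromosome 9 (6 of 619, 0.357 to 2.10). These were the only 2 of the 23 unadjusted intervals that did not hold the overall share. The largest share, on chromosome 18, rested on 9 of 201 sites (4.48%, 2.07 to 8.33), and chromosome 21 followed with 7 of 172 (4.07%, 1.65 to 8.21). Among weak sites only, with scores below 20 in replicate 1 and below 10 in replicate 2, the overall share was 8.85%, and chromosome 16 no longer stood apart (24 of 208, 11.5%, 7.53 to 16.7). Chromosome 9 remained below it, at 6 of 148 (4.05%, 1.50 to 8.61). The copy number of chromosomes in these cells was not analysed here.

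**Figure D4:**
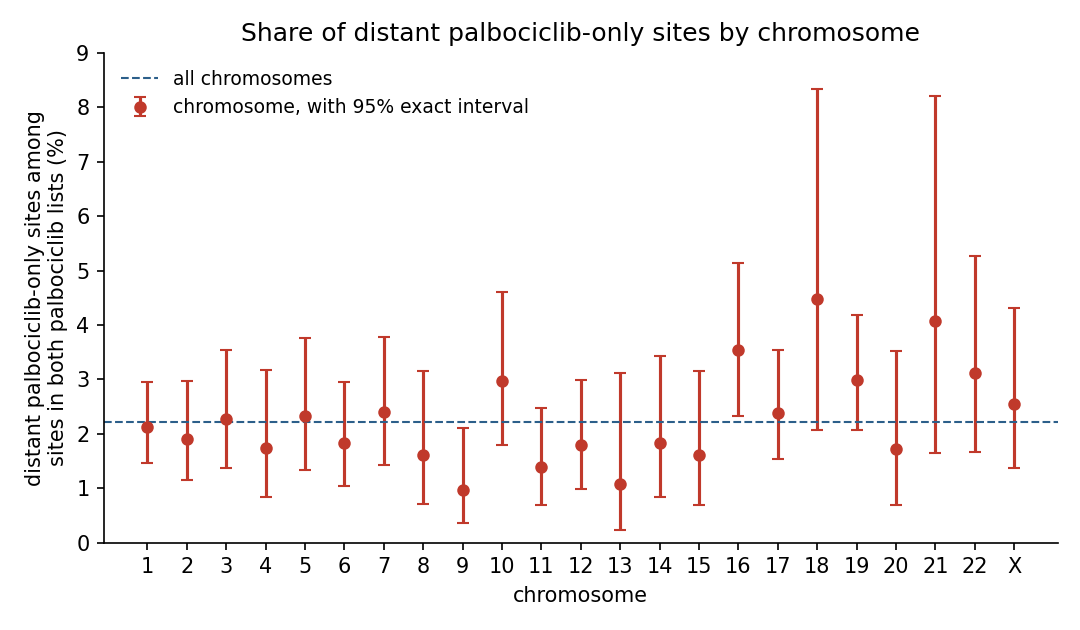
Share of distant palbociclib-only sites among the sites of both palbociclib libraries (vertical axis, %) for each chromosome, with exact 95% binomial intervals; the dashed line is the share over all chromosomes, 2.21%. The intervals of chromosomes 16 (3.54%) and 9 (0.969%) do not cross the line.

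The 8 sites of the reverse rule ranked higher in their replicate 1 list than the distant palbociclib-only sites did in theirs. The median percentile was 40.2 in activin replicate 1 against 73.5 in palbociclib replicate 1. In replicate 2 the medians lay closer, at 80.8 against 86.6. The scores of the 8 sites were 12.2 to 47.0 in activin replicate 1 and 2.5 to 13.6 in activin replicate 2. Their percentiles were 23.6 to 53.1 and 28.5 to 98.3 of these lists. The highest scores were at chr19:5698306-5698320 (47.0 and 13.6), chr1:28841496-28841576 (40.2 and 3.56) and chr1:28840312-28840320 (39.7 and 7.51). The others lay at chr4:119202114-119202236 (23.7 and 4.76), chr2:217371913-217371963 (19.96 and 2.5), chr9:139616073-139616127 (17.3 and 5.23), chr7:26224774-26224980 (13.4 and 5.21) and chr4:53581473-53581594 (12.2 and 2.87). All 8 lay close to the 2000 bp limit, 2058 to 4428 bp from a palbociclib summit, and 2146 to 15355 bp from a shared site. The median distance of the distant palbociclib-only sites to a summit of the other treatment, 9479.5 bp, was above the highest of these 8. A site of both activin lists had to be in the short list of replicate 2, so the strengths of the 2 kinds were not on an equal footing.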

How the data were processed

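The 4 lists of peak summits of the ChIP libraries were analysed; the 2 input libraries were used by the authors for peak calling and were not analysed here. The submitters' processing notes name the peak caller MACS2 2.0.9, the aligner Bowtie 1.1.0 and Picard, and the build hg19; no settings are given in the sources used here. The score that the authors deposited is on a −log10 scale and was read as that of a q-value, since the lowest lie just above 1.30, which is −log10 of 0.05. It grows with depth as well as with enrichment so it was used to rank or filter within a list, and where scores of different lists stand side by side they are the authors' values, not levels of enrichment. Coordinates are 1-based and cover all summits of a site. Distances between sites run between their closest ends, and those to activin or palbociclib summits between summits. Intervals of shares are exact (Clopper-Pearson) and those of medians come from order statistics. The members and lists were chosen with earlier results of these data known. Named sites were the 10 with the best mean rank, the 3 at each extreme of distance, those on both sides of the threshold, the largest groups and all sites of the reverse rule. The groups of 3 tied, so 4 groups are named. The choice to look up replicate 1 summits in the replicate 2 lists, the score bands and the comparisons by strength were made after the data were seen. No test was run on the member counts: 2 libraries against 2 allow no small p. The code was tested on simulated lists, where all 200 planted sites of this kind were recovered among 1360 sites. The planted sites lay far apart, with their summits close together. Their recovery thus checks the code only and not how crowded or loosely placed summits are joined. Computations used scipy 1.17.1, pandas 2.3.3 and numpy 2.4.6 under Python 3.11.15, and figures matplotlib 3.10.9.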

Additional observations from a re-analysis of the deposited data

How the results depend on the processing

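Under each alternative fixed at the start that kept all 4 libraries, the median score percentiles changed by less than the SD between the palbociclib libraries. That SD rests on only 2 values, 73.5 and 86.6, from lists of unequal length, so staying within it shows little. The number of sites, their distance to shared sites and their gathering depended on the rule. The main values were 342 sites, percentiles of 73.5 and 86.6, 21950.5 bp to the nearest shared site and 20.2% with another such site within 100 kb. Joining summits over 100 bp gave 218 sites, 30659 bp and 12.8%, and asking for palbociclib summits within 100 bp of each other gave 217 sites and 11.98%. An activin-free distance of 1000 bp gave 550 sites, 16659 bp and 29.8%. At 5000 bp the values were 30943 bp and 15.9%, and at 10000 bp they were 163 sites, 47359 bp and 10.4%. With scores of at least 5 in all lists there were 272 sites, at 29735 bp and with 14.3%, but 105 of the 342 were among them. In lists of 7241 summits each there were 309 sites, at 101647 bp and with 7.12%, and 0 of the 342 were among them. In these 2 settings weak activin summits no longer counted, and the percentiles were those within the shortened lists. With lists of equal length they were 80.9 and 80.7 and belonged to none of the 342 sites. With scores of at least 5 in the palbociclib lists alone, chosen after the data were seen, 105 sites were left, at 44167 bp and with 5.71%. With scores of at least 10 there, 7 were left, at percentiles of 88.2 and 96.2 of the shortened lists and with 0% near another. Without 1 library in turn the number ran from 354 to 8038, the percentiles from 40.1 to 83.3 in replicate 1 and from 60.6 to 88.1 in replicate 2, the distance from 12647.5 to 61288 bp and the share from 21.5% to 74.9%. Activin replicate 1 gave the values of 8038, 40.1, 60.6, 61288 bp and 74.9% when left out. Fewer lists then decide, by construction, on the sites and also on which sites count as shared. Those distances thus run to sites shared by the remaining libraries, not to the shared sites of the main value. No paired analysis was possible because no result comes from a test; the changes given within each replicate are descriptions. The number of reads per library is unknown, so the depth at which a weak site would be seen in an activin library was not tested.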

Other observations

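The strongest activin summit without a palbociclib summit close by lay in a run of such summits on chromosome 1, chosen after its values were seen. From 28834515 to 28842484, over 7970 bp, 7 sites held 3 summits of activin replicate 1 and 6 of activin replicate 2 and none within 2000 bp of a palbociclib summit. The best of them, at 28836882, scored 99.7 in activin replicate 1, which is percentile 6.45 of that list, and was 4397 bp from the nearest palbociclib summit. A summit of activin replicate 2 at 28837153 scored 41.2. On either side of the run lay sites shared by all 4 libraries. At 28832476 to 28832488 the scores were 279 and 103 in the activin libraries and 402 and 250 in the palbociclib libraries. At 28844748 to 28844791 they were 97.8 and 14.9, and 153 and 72.9. Other runs of the same kind held fewer sites. The one on chromosome 3 from 187455983 to 187468243 had 6 sites over 12261 bp, all of activin replicate 1, with a best score of 3.71. The one on chromosome 19 from 5693645 to 5703579 had 5 sites over 9935 bp, with best scores of 47.0 and 39.9 in activin replicates 1 and 2. The one on chromosome 9 from 139606574 to 139616127 had 5 sites over 9554 bp, with 17.25 and 5.23, and the one on chromosome 1 from 173832427 to 173835025 had 4 sites over 2599 bp, with 4.47 and 21.3.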
